A study of Mus with 35 samples.

Results

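The comparison described here was 8 against 3 weeks of age in the brains of wild-type (WT) mice that had been given the Hnrnph2 antisense oligonucleotide (ASO). Of 55573 rows in the table, 16618 genes averaged 1 TPM or more in the 6 libraries and are covered here. TPM divides reads by transcript length and scales each library to the same total. Both groups were male C57BL/6J WT littermates of Hnrnph2 mutant mice, and each animal had been given 30 µg of the Hnrnph2 ASO once, into a brain ventricle, between postnatal days 2 and 4. The 8-week group and the 3-week group had 3 libraries each, and the 3-week libraries were those whose library numbers belong to the same series as the 8-week ones. A second set of 3 libraries from 3-week WT mice with the Hnrnph2 ASO had numbers of another series and is set beside the results where it bears on them. The comparison group was WT mice given a control ASO by the same route, with 3 libraries at 8 weeks and 3 at 3 weeks. The whole series held 35 libraries. Age went together with the time since injection, with the animals and with a second part of the library names, so these cannot be told apart. With the Hnrnph2 ASO, that part began with TCF in each 8-week library and with AK in each 3-week library of the comparison. The labels do not say what it stands for. Nothing in the labels ties each library to its own animal, and the p-values measure a spread between libraries. That spread was taken within 12 groups over all 35 libraries, not from these 6 alone.

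An ASO is a short synthetic nucleic acid that pairs with a chosen RNA, and this one was directed at Hnrnph2. Hnrnph2 is an X-linked gene for a nuclear protein of the hnRNP H/F family, which binds runs of guanine in RNA and acts on splicing. In the mouse, the third postnatal week is a time of rapid myelination, in which oligodendrocyte precursors mature and make large amounts of cholesterol and myelin protein. Over the following weeks vessels and extracellular matrix also mature, and young neurons finish migrating and extending their axons.

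The tissue is whole brain by the design text but cortex by the protocol for RNA extraction. The 6 libraries held cortical, cerebellar and other regional markers. The 14 cortical layer markers summed to between 992 and 1040 TPM at 8 weeks and to between 1057 and 1266 TPM at 3 weeks. Cbln3, a granule cell gene of the cerebellum, stood at 104, 114 and 109.8 TPM at 8 weeks, against 71.4, 87.5 and 64.8 TPM at 3 weeks. Hcrt, the hypothalamic neuropeptide orexin, and Ttr, the transthyretin gene of the choroid plexus, were also detected in each library, with Ttr between 591 and 1160 TPM. The markers thus included structures outside the cortex.

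One library of the 6, 3-week replicate 3, stood apart. Mitochondrially encoded genes took 9.28% of its TPM, against 12.8% and 12.9% in the other 3-week libraries and 14.0% to 14.8% in the 8-week libraries. Its correlation with the other 3-week libraries, on the log2(TPM + 1) scale over the genes tested, was 0.975 and 0.976, against 0.987 between those. Gfap, the intermediate filament gene of reactive astrocytes, had 171, 178 and 488 TPM in 3-week replicates 1 to 3, and Ptx3, a secreted pentraxin, had 0.64, 0.52 and 19.5 TPM. Where the call of a named gene ended without this library, this is stated. The summed haemoglobin level was 1493, 1280 and 880.0 TPM at 8 weeks, against 5827, 3491 and 2166 TPM at 3 weeks.

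Hnrnph2 itself, at chromosome X, 134601179 to 134607060 of GRCm38, had 18.5, 20.6 and 12 TPM at 8 weeks, against 16.4, 18.2 and 19.3 TPM at 3 weeks. The mean was 17 ± 4.5 TPM at 8 weeks and 18 ± 1.49 TPM at 3 weeks (SD, n = 3 each), and the groups overlapped. With the control ASO it averaged 105 ± 14.8 TPM at 8 weeks and 109 ± 6.66 TPM at 3 weeks, so all 6 libraries with the Hnrnph2 ASO lay far below all 6 with the control ASO. The log2 fold change between ages with the Hnrnph2 ASO was -0.10 ± 0.15 (SE) on the log2(TPM + 1) scale, with an adjusted p of 0.72. Every adjusted p here comes from limma with Benjamini-Hochberg adjustment over the 16618 genes. Without 8-week replicate 3, which had the lowest level, the value was 0.12. The second set of 3-week libraries had 26.7, 24.6 and 23.3 TPM, and against them the 8-week libraries were lower (-0.55, adjusted p = 0.013).

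None of the 5 hnRNP H/F members was called between the ages with the Hnrnph2 ASO. Hnrnph1, the autosomal gene closest to Hnrnph2, had 421, 429 and 385 TPM at 8 weeks, against 397, 365 and 409 TPM at 3 weeks (0.08 ± 0.06, adjusted p = 0.49). With the control ASO it had 333, 328 and 299 TPM at 8 weeks, against 253, 242 and 246 TPM at 3 weeks, and this rise was called (0.37 ± 0.06, adjusted p = 0.00028). The 2 age effects differed by -0.29 (95% interval -0.48 to -0.11, adjusted p = 0.999), which does not pass over all genes. Hnrnph3, a shorter relative, had 53.5 ± 3.66 TPM at 8 weeks and 43.6 ± 5.79 TPM at 3 weeks (0.30 ± 0.11, adjusted p = 0.077). It was called higher without 3-week replicate 3 (adjusted p = 0.032), under median-of-ratios scaling (adjusted p = 0.038) and with the control ASO. Hnrnpf and Grsf1 had log2 fold changes of -0.16 and -0.18. Of 23 other hnRNP and FET genes, which package nascent RNA, 0 were called by limma, and 1 was called without 3-week replicate 3.

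Of the 16618 genes, 1965 were called at an adjusted p under 0.05, or 11.8%. More genes were lower than higher at 8 weeks: 1447 (8.71%) were lower and 518 (3.12%) were higher. Most changes were small, since 65 genes (0.391%) were at least 2-fold lower and 25 (0.15%) at least 2-fold higher. The 2 groups did not overlap in 4748 genes (28.6%), and 1910 genes (11.5%) were both called and without overlap. The median log2 fold change of all genes was -0.05. Without 3-week replicate 3, 853 genes (5.13%) were lower and 335 (2.02%) higher, and 1011 of the 1965 calls were made again. Without 8-week replicate 3, 947 genes were lower and 336 higher. A fit of these 6 libraries alone, with their own spread, called fewer genes: 283 lower and 101 higher. The split depended on the scaling, because 26.4% of the calls were higher with the deposited TPM and 44.0% after scaling by the median of ratios, with 830 higher (4.99%) and 1056 lower (6.35%) genes.

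**Figure D1:**
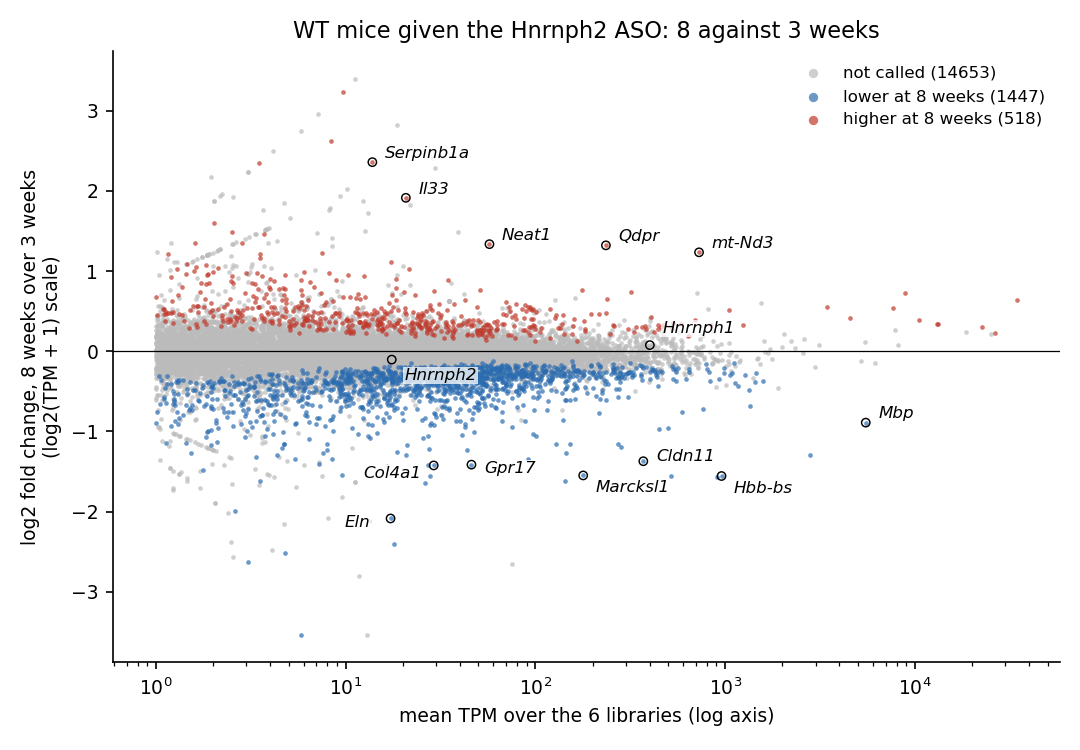
Log2 fold change of each gene, 8 over 3 weeks with the Hnrnph2 ASO (vertical axis, log2(TPM + 1) scale), against its mean TPM over the 6 libraries (horizontal axis, log scale). Blue points are the 1447 genes called lower and red points the 518 called higher at 8 weeks; Mbp lies among the most abundant genes that fell, and Hnrnph2 and Hnrnph1 lie near 0.

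The called genes are described here by class and size, with no test. Of those found in RefSeq, 95.8% of 1406 lower genes, 88.5% of 480 higher genes and 88.6% of all 15478 tested genes were protein-coding. Long noncoding RNAs made up 1.99% of the lower genes and 7.08% of the higher genes, against 4.76% of all. The median genomic span was 21.8 kb for lower genes, 14.8 kb for higher genes and 21.5 kb for all. Median abundance was 29.8 TPM for lower genes, 15 TPM for higher genes and 16.6 TPM for all.

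The largest rise among named genes without overlap was that of Serpinb1a, which encodes an inhibitor of neutrophil serine proteases (chromosome 13, 32842092 to 32853206). It had 21.1, 24.3 and 24.6 TPM at 8 weeks, against 4.17, 7.27 and 1.48 TPM at 3 weeks. All 8-week libraries were above 21 TPM and all 3-week libraries below 7.5 TPM, and the log2 fold change was 2.36 ± 0.28 (adjusted p = 1.7e-06). Il33, a nuclear cytokine made by oligodendrocytes and astrocytes (chromosome 19, 29925113 to 29960718), had 30.7, 38.2 and 31.3 TPM at 8 weeks, against 9.15, 8.32 and 6.91 TPM at 3 weeks. It rose (1.91 ± 0.15, adjusted p = 1.7e-09), and every 8-week library was above every 3-week one. Qdpr, which regenerates the cofactor tetrahydrobiopterin, had 342, 329.7 and 337 TPM at 8 weeks, against 135, 147 and 121 TPM at 3 weeks (1.32 ± 0.11, adjusted p = 4e-09). Neat1, the noncoding RNA that scaffolds nuclear paraspeckles, had 91.6, 77.5 and 78.1 TPM at 8 weeks, against 30.3, 36.4 and 29.6 TPM at 3 weeks (1.34 ± 0.19, adjusted p = 1.6e-05). The spread within either age was small beside the gap in both genes.

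Lower in abundance, Pkd2l1, a cation channel of neurons that contact the cerebrospinal fluid, averaged 2.01 ± 0.27 TPM at 8 weeks and 0.30 ± 0.06 TPM at 3 weeks (1.21). Plk5, a polo-like kinase of postmitotic cells, averaged 29.2 ± 1.84 TPM at 8 weeks and 13.9 ± 1.36 TPM at 3 weeks (1.02). The methyltransferase gene Inmt had 1.77, 3.11 and 2.17 TPM at 8 weeks, against 0.57, 0.50 and 0.60 TPM at 3 weeks (1.09). These 3 rises, like those of Serpinb1a, Il33, Qdpr and Neat1, kept their call with any 1 of the 6 libraries left out. So did mt-Nd3 (1.23), Adamtsl4 (1.22), Gkn3 (1.35) and Aqp6 (0.99), a matrix-associated protein gene, a gastrokine and a water channel beside the mitochondrial one. Gkn3 and Aqp6 were not called against the second set of 3-week libraries (adjusted p = 0.062 and 0.14). Abca8a (1.16), Lyz2 (1.11), Nhlrc4 (1.02) and H2-Aa (0.98) made up the 15, and none of these 4 was called without 3-week replicate 3 (adjusted p = 0.06, 0.051, 0.052 and 0.16).

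Among the largest falls, Eln, the gene of the elastic fibre protein elastin, had 6.87, 4.65 and 6.03 TPM at 8 weeks, against 26.9, 21 and 37.9 TPM at 3 weeks. The lowest 3-week library was at 3 times the highest 8-week library, and the log2 fold change was -2.09 ± 0.17 (adjusted p = 3.2e-09). Marcksl1, a membrane-associated actin regulator of growing neurons (chromosome 4, 129513581 to 129515981), had 94.9, 87.4 and 89 TPM at 8 weeks, against 271, 254 and 275 TPM at 3 weeks. With -1.55 ± 0.08 and an adjusted p of 1.3e-13, it had the smallest p of the genes named here. Alox5, the lipoxygenase that starts leukotriene synthesis, had 0.32, 0.49 and 0.59 TPM at 8 weeks, against 2.7, 2.94 and 3.63 TPM at 3 weeks (-1.48 ± 0.15). Crybb1, a crystallin gene also expressed by young microglia, averaged 3.56 ± 0.69 TPM at 8 weeks and 10.9 ± 0.24 TPM at 3 weeks (-1.40 ± 0.14). None of 16 microglial identity genes was called by limma here, and 3 were called higher against the second set of 3-week libraries.

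Other large falls were less certain. Ptx3 had 0.30, 0.24 and 0.10 TPM at 8 weeks, against 0.64, 0.52 and 19.5 TPM at 3 weeks, and the fold change of -1.62 became -0.38 (adjusted p = 0.086) without 3-week replicate 3. The small nucleolar RNA Snora41 was listed at 0 in 2 of the 8-week libraries and at 3.22 TPM in the other, against 11.9, 6.8 and 6.8 TPM at 3 weeks, and its call ended without 8-week replicate 1, 8-week replicate 3 or 3-week replicate 1. Rps12l1, a near copy of the ribosomal gene Rps12 that can share reads with it, had 26.9, 7.22 and 7.62 TPM at 8 weeks, against 47.7, 34.8 and 33.2 TPM at 3 weeks. Tmem254c, which also has close copies, averaged 14.4 ± 3.61 TPM at 8 weeks and 39.9 ± 7.02 TPM at 3 weeks (-1.42). Of the 15 largest falls 12 kept their call with any 1 of the 6 libraries left out, the exceptions being Snora41, Ptx3 and Hbb-bt.

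**Figure D2:**
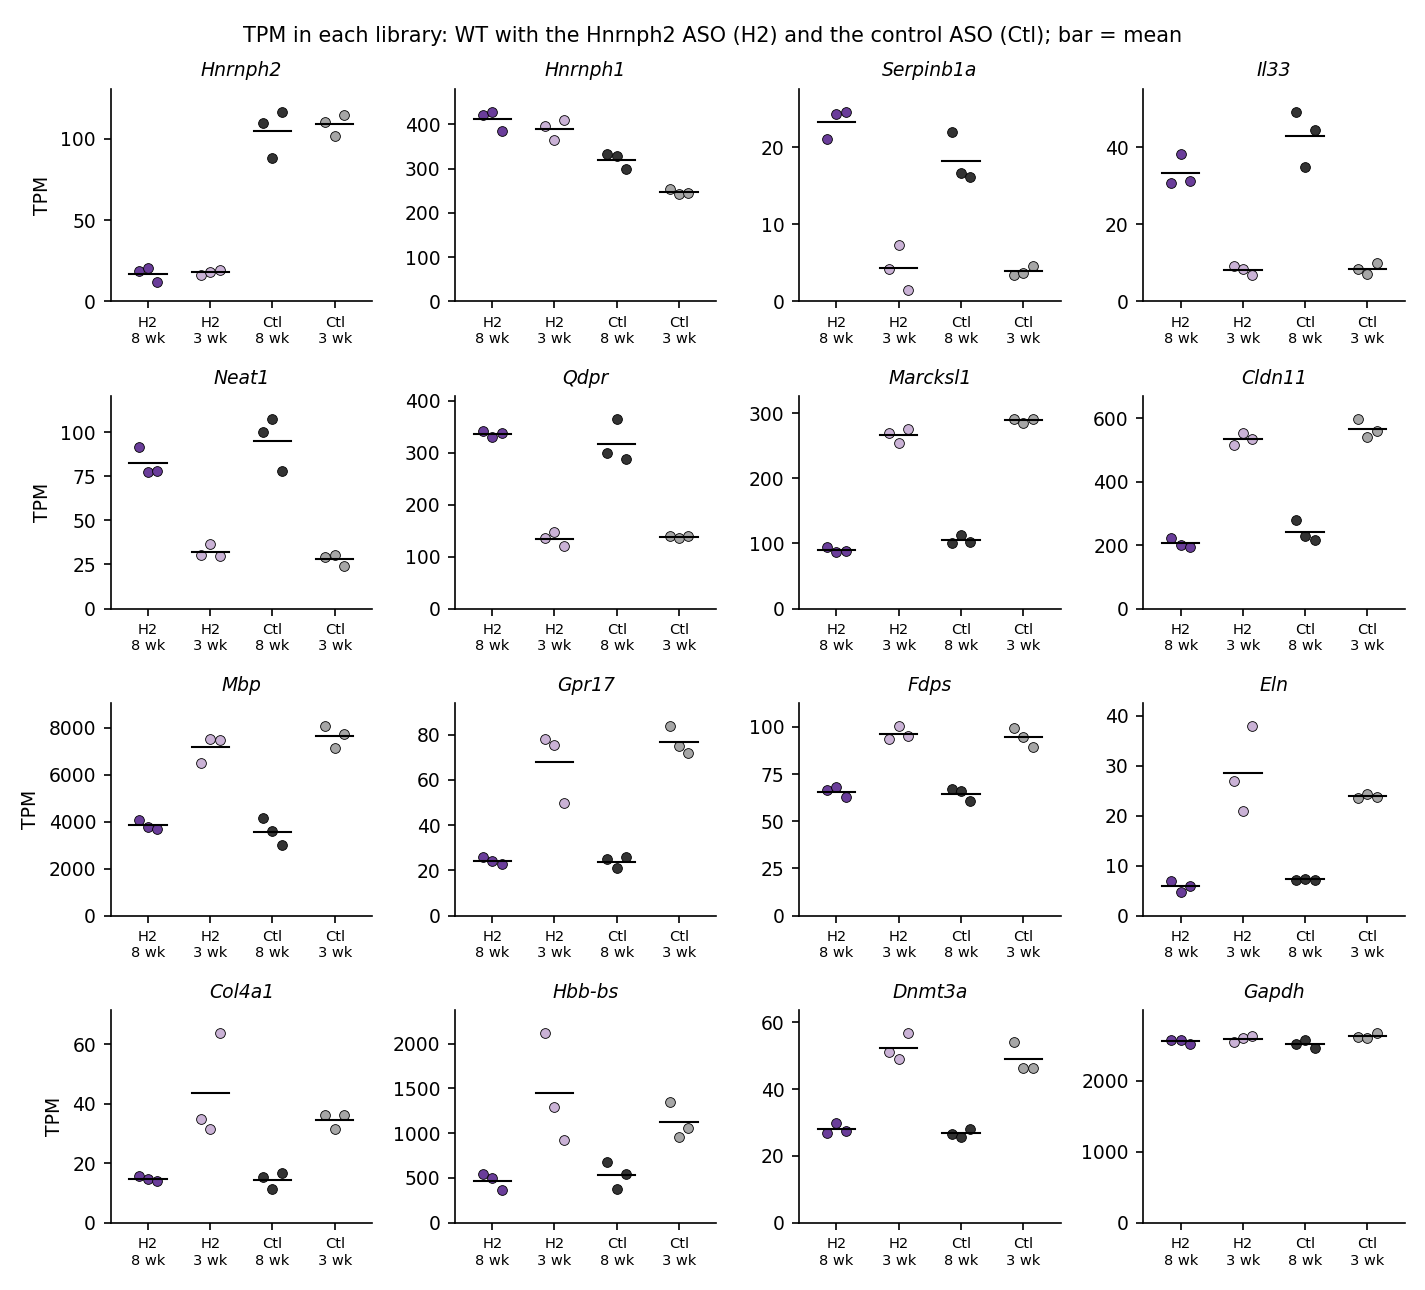
TPM of 16 genes in each library (vertical axes from 0, points are libraries, bars are means): WT with the Hnrnph2 ASO at 8 and 3 weeks, then WT with the control ASO at 8 and 3 weeks. Hnrnph2 is low at both ages with the Hnrnph2 ASO; Serpinb1a, Il33, Neat1 and Qdpr are higher and Marcksl1, Cldn11, Mbp, Gpr17 and Eln lower at 8 weeks, with no overlap between ages.

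Genes of the oligodendrocyte lineage fell in the lists of mature, newly formed and precursor cells. Among 25 genes of myelin and mature oligodendrocytes, 13 were called lower and 1 higher at 8 weeks, with a median log2 fold change of -0.47 against -0.05 over all genes. Cldn11, the tight junction protein of the myelin sheath (chromosome 3, 31149920 to 31164326), had 224, 199.7 and 195 TPM at 8 weeks, against 517, 553 and 534 TPM at 3 weeks (-1.37 ± 0.09, adjusted p = 2.3e-10). Mbp, the myelin basic protein that compacts the sheath, had 4067, 3791 and 3707 TPM at 8 weeks, against 6477, 7534 and 7463 TPM at 3 weeks (-0.89 ± 0.11, adjusted p = 6.1e-06). Both genes were above their 8-week range in all 3-week libraries by more than the whole spread within an age. Mog, on the outer surface of the sheath, averaged 94.4 ± 7.58 TPM at 8 weeks and 211 ± 20.5 TPM at 3 weeks (-1.15). Cnp, an enzyme of the inner tongue of myelin, averaged 338 ± 13.7 TPM at 8 weeks and 658 ± 56.4 TPM at 3 weeks (-0.95). The other 11 tested members were not called, and 9 of the 25 had positive fold changes.

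Myelin genes did not all move one way. Hapln2, a link protein of the matrix at nodes of Ranvier, had 49.4, 42.8 and 41.7 TPM at 8 weeks, against 25.5, 31.7 and 31.2 TPM at 3 weeks, and rose (0.59 ± 0.15, adjusted p = 0.0092), a call that ended without 8-week replicate 1. Of the 11 members not called, Anln, Trf and Apod had positive values (0.47, 0.41 and 0.38), and Aspa and Ermn were near 0 (-0.12 and 0.02). The summed level of the 25 genes was between 9118 and 10030 TPM at 8 weeks and between 15910 and 17950 TPM at 3 weeks. In bulk tissue, fewer cells of a type and less RNA per cell cannot be told apart.

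Of 10 genes of newly formed oligodendrocytes, 7 were lower and 0 higher, with a median of -0.78. Gpr17, a receptor of precursors that have begun to differentiate, had 25.8, 24.3 and 22.9 TPM at 8 weeks, against 77.9, 75.2 and 49.9 TPM at 3 weeks (-1.41 ± 0.14, adjusted p = 1.8e-07). The noncoding transcript 9630013A20Rik, which marks the same stage, had 5.05, 5.05 and 4.46 TPM at 8 weeks, against 24.8, 25.7 and 42.6 TPM at 3 weeks (-2.41). Sirt2, a deacetylase of the sheath, averaged 167 ± 5.25 TPM at 8 weeks and 376 ± 39.9 TPM at 3 weeks (-1.16). Each of the 3 was at least 2 times higher on average at 3 weeks. Fyn, a kinase upstream of local Mbp translation, averaged 86.6 ± 1.96 TPM at 8 weeks and 145 ± 17.1 TPM at 3 weeks (-0.73). Bmp4, Tcf7l2 and Nkx2-2 were the members not called.

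Of 13 genes of oligodendrocyte precursors, 10 were lower and 0 higher, with a median of -0.48. Olig1, a transcription factor of the whole lineage, had 134, 123 and 128 TPM at 8 weeks, against 188, 195 and 198 TPM at 3 weeks (-0.59 ± 0.07, adjusted p = 1.6e-06). Cspg4, the NG2 proteoglycan of precursors and pericytes, had 8.06, 7.84 and 8.02 TPM at 8 weeks, against 12.1, 12.7 and 11.1 TPM at 3 weeks (-0.53). The changes of the precursor genes were smaller than those of Gpr17 or Cldn11, with Neu4 (-0.84) and Emid1 (-0.84) the lowest. Without 3-week replicate 3, 13 myelin, 7 newly formed and 8 precursor genes were lower.

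Of the 22 cell division genes listed, 7 (Mki67, Ccnb1, Aurkb, Bub1, Cenpf, Tk1 and Kif11) did not reach the mean of 1 TPM, and Mki67 was at most 0.54 TPM at 8 weeks and 0.98 TPM at 3 weeks. Of 15 tested, 3 (Rrm2, Birc5 and Cdc20) were called lower, against 8.71% of all genes tested. The count was 0 without 8-week replicate 2, 8-week replicate 3 or 3-week replicate 3, and 1 without 8-week replicate 1 or 3-week replicate 1.

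Genes of cholesterol synthesis fell with the myelin genes. All 24 had negative log2 fold changes and 15 were called lower, with a median of -0.45. Fdps, which makes farnesyl diphosphate, had 66.3, 68 and 62.7 TPM at 8 weeks, against 93.4, 100.4 and 95 TPM at 3 weeks (-0.54 ± 0.09, adjusted p = 0.00025). Its groups did not overlap. Cyp51, the lanosterol demethylase, averaged 36.1 ± 2.97 TPM at 8 weeks and 59.1 ± 4.41 TPM at 3 weeks (-0.70), and Acat2, at the entry of the pathway, averaged 37.7 ± 1.25 TPM at 8 weeks and 52.5 ± 1.77 TPM at 3 weeks (-0.47). Srebf2, the transcription factor that drives the pathway, and Insig1, which holds that factor back, were not called (-0.04 and -0.14). Without 3-week replicate 1, or without 3-week replicate 2, 9 of the 24 were called. Against the second set of 3-week libraries the count was also 9.

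In cholesterol export and turnover, 1 of 10 genes rose and 2 fell, against 3.12% and 8.71% of all genes tested. Nr1h3, the sterol-sensing nuclear receptor LXR alpha, had 3.79, 4.93 and 4.02 TPM at 8 weeks, against 2.47, 2.58 and 2.17 TPM at 3 weeks (0.62 ± 0.11, adjusted p = 0.0004). Npc2, a carrier of cholesterol out of the lysosome, and Cyp46a1, the brain's cholesterol hydroxylase, fell by small amounts (-0.26 and -0.24), and under median-of-ratios scaling neither was called. Cyp46a1 also lost its call without 8-week replicate 2, 8-week replicate 3, 3-week replicate 1 or 3-week replicate 2.

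**Figure D3:**
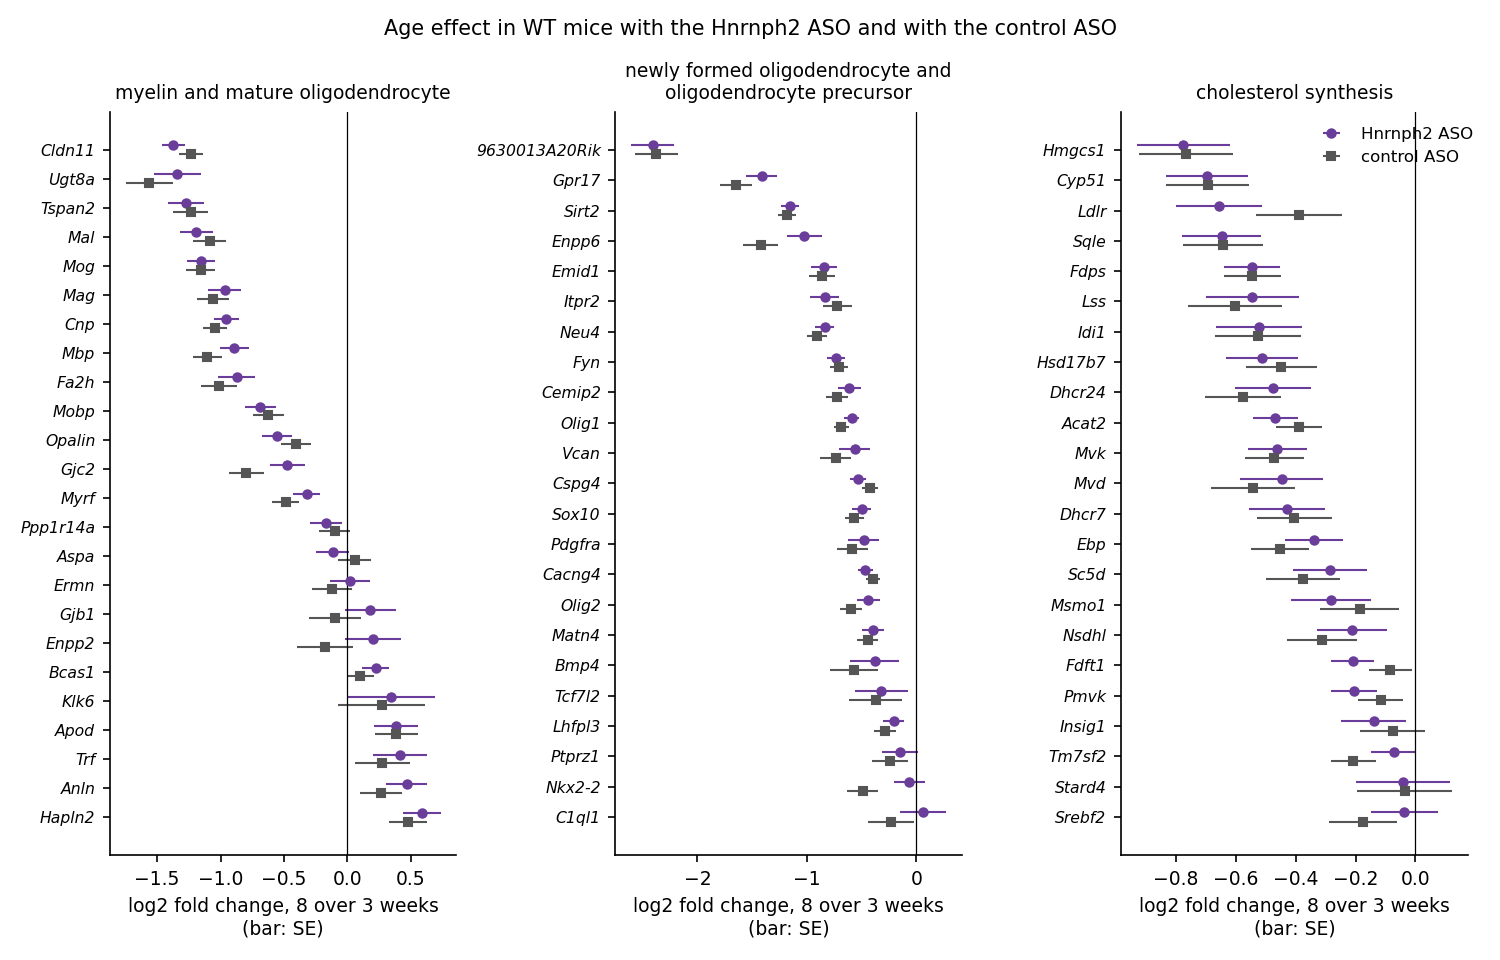
Log2 fold change, 8 over 3 weeks (horizontal axes; bars are SE), of myelin, newly formed oligodendrocyte, precursor and cholesterol synthesis genes in WT mice, with the Hnrnph2 ASO (purple circles) and with the control ASO (grey squares). Members run from the lowest at the top to the highest at the bottom, and the 2 symbols of a gene lie close together for most members.

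Genes of immature neurons and axon growth fell as well. Of 21 tested, 14 were lower and 0 higher, with a median of -0.47. Beside Marcksl1, Sox4, a transcription factor of neurons that have just left the cell cycle, had 10.4, 10.6 and 11.5 TPM at 8 weeks, against 21.8, 17.1 and 24.3 TPM at 3 weeks (-0.89 ± 0.11, adjusted p = 5.7e-06). Sox11, its close relative, had 4.36, 4.35 and 3.92 TPM at 8 weeks, against 6.56, 5.76 and 10.3 TPM at 3 weeks (-0.68 ± 0.11, adjusted p = 0.00012). In both genes 3-week replicate 3 was the highest library. Crmp1, a mediator of semaphorin signals, averaged 132 ± 3.72 TPM at 8 weeks and 185 ± 18.3 TPM at 3 weeks (-0.48). Gap43 and Stmn1, growth cone and tubulin-binding genes that neurons also use later, were not called (-0.10 and 0.07). Against the second set of 3-week libraries 7 of the 21 were lower, and Sox11 was not among them (-0.19, adjusted p = 0.24). Of 20 axon guidance genes 3 were lower, against 8.71% of all genes tested. Sema6a, a semaphorin of oligodendrocytes and neurons, fell (-0.84 ± 0.12) and was called in all 6 fits that left out 1 library, whereas Sema3c and Epha5 were not called without 3-week replicate 3, 3-week replicate 1 or 8-week replicate 1, which left a count of 1, and Epha5 was also not called without 8-week replicate 3. None of the 8 neuroblast genes was called by limma, and their median was -0.28. Against the second set of 3-week libraries 3 axon guidance genes were higher and 2 lower. The median of that list was 0.14 against that set and -0.12 here. The neuroblast list had a median of 0.10 against that set, again with 0 called by limma.

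Calls in the cytoskeleton and chromatin lists were all lower at 8 weeks, in 3 of 13 and 4 of 16 members against 8.71% of all genes tested. Tubb2a and Tuba1a, tubulins abundant in growing neurites, fell (-0.72 ± 0.11 and -0.48 ± 0.09), with Tuba1a at 1114, 1109 and 1116 TPM at 8 weeks, against 1589, 1571 and 1500.2 TPM at 3 weeks. With Map6 (-0.38), these were the 3 lower members of 13, while the neurofilament genes Nefl, Nefm and Nefh were not called (-0.12, -0.32 and -0.02). Dnmt3a, the methyltransferase that lays down non-CG methylation in maturing neurons (chromosome 12, 3801559 to 3914443), had 26.8, 29.8 and 27.5 TPM at 8 weeks, against 51, 48.9 and 56.8 TPM at 3 weeks (-0.87 ± 0.09, adjusted p = 2.7e-07). Tet3, which oxidises methylcytosine, had 13.1, 16.4 and 14.1 TPM at 8 weeks, against 21.6, 20.9 and 25.2 TPM at 3 weeks (-0.60 ± 0.11, adjusted p = 0.00052). Hmgn2 and Ezh2 made up the 4 lower genes of 16, and were not called without 8-week replicate 3 or without 3-week replicate 3, each of which left 2.

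Vascular and matrix genes fell in part. Of 18 genes of the leptomeninges and collagen, 7 were lower and 1, Dcn, was higher, against 8.71% and 3.12% of all genes tested. Col4a1, the main collagen of vessel basement membranes (chromosome 8, 11198423 to 11312889), had 15.6, 14.7 and 14.1 TPM at 8 weeks, against 35, 31.6 and 63.7 TPM at 3 weeks (-1.42 ± 0.19, adjusted p = 6.9e-06). Its partner chain Col4a2 had 18, 14 and 14.9 TPM at 8 weeks, against 31.5, 28.5 and 58.1 TPM at 3 weeks (-1.21 ± 0.17, adjusted p = 1.5e-05). For both chains 3-week replicate 3 was highest, and the other 3-week libraries were still above all 8-week ones. Sparc, a collagen-binding protein, averaged 439 ± 39.9 TPM at 8 weeks and 748 ± 121 TPM at 3 weeks (-0.76), and the fibrillar collagen Col3a1 averaged 4.14 ± 1.52 TPM at 8 weeks and 11.1 ± 2.31 TPM at 3 weeks (-1.27). The call of Dcn (0.47) ended without any 1 of the 8-week libraries or without 3-week replicate 3, which left 0 higher.

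Of 14 genes of brain endothelium, 4 were lower, against 8.71% of all genes tested, and the list's median of -0.05 equalled that of all genes. Mfsd2a, the lipid transporter of the blood-brain barrier, had 14.3, 17.1 and 14.9 TPM at 8 weeks, against 25, 28.6 and 52.8 TPM at 3 weeks (-1.08 ± 0.16, adjusted p = 3.2e-05). Without 3-week replicate 3 its fold change was smaller (-0.76) and it was still called. Kdr, the main VEGF receptor, had 4.64, 4.55 and 4.47 TPM at 8 weeks, against 9.3, 8.35 and 10.7 TPM at 3 weeks (-0.90), and Cldn5, the endothelial tight junction claudin, averaged 42.1 ± 7.22 TPM at 8 weeks and 62.9 ± 5.36 TPM at 3 weeks (-0.58). Pecam1 and Slc2a1, a junction protein and the glucose transporter of the same cells, were not called (-0.22 and -0.14). Of 13 pericyte and smooth muscle genes 3 were lower, and 6 had positive fold changes. The lower genes were Cspg4, also counted above among the precursor genes, Pdgfrb (-0.37) and Kcnj8 (-0.35). Kcnj8 was not called without 8-week replicate 1, 8-week replicate 3 or 3-week replicate 3. Without 3-week replicate 1, 2 pericyte and smooth muscle genes were called higher.

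Red cell genes were lower in all 7 tested members. Hbb-bs, a beta globin, had 543, 505 and 361 TPM at 8 weeks, against 2116, 1294 and 921 TPM at 3 weeks (-1.56 ± 0.33, adjusted p = 0.0018), and the other globins lay between -1.61 and -1.56. The globin copies are near-identical, so their separate values are uncertain. Alas2, the first enzyme of haem synthesis in red cells, had 4.85, 4.55 and 3.59 TPM at 8 weeks, against 19.97, 12.6 and 11.9 TPM at 3 weeks (-1.54). Bpgm, a red cell mutase of glycolysis, fell as well (-0.28 ± 0.07). Slc4a1 was under the minimum. The 3-week libraries themselves spread over more than a 2-fold range in Hbb-bs, and replicate 1 was highest. The share of blood in the 3-week samples and its part in the vascular results was not tested.

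Perineuronal net genes, which form the matrix around certain mature neurons, had negative fold changes in 10 of 11 members: 5 were called lower, and Hapln4 alone was higher. Ncan, the neurocan core protein of juvenile matrix, had 48.5, 52.4 and 52.5 TPM at 8 weeks, against 97.3, 90.1 and 113 TPM at 3 weeks (-0.95 ± 0.11, adjusted p = 2.3e-06). Hapln4, a link protein of adult nets and calyces, had 80.2, 85.6 and 89.8 TPM at 8 weeks, against 52.3, 57.4 and 55.5 TPM at 3 weeks (0.62 ± 0.11, adjusted p = 0.00055). Neither gene overlapped between ages, and they moved in opposite directions. Bcan, brevican, fell by a small amount (-0.32 ± 0.06), and Adamts4, a protease that cleaves it, fell as well (-0.79 ± 0.15). Tnc (-0.97) and Hapln1 (-0.68) were the other lower members, and Acan, the aggrecan of mature nets, was not called (-0.22). Against the second set of 3-week libraries 2 members were lower and 1 was higher, and Ncan was not called (-0.30, adjusted p = 0.069).

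Synaptic genes that were called changed by small amounts. Of 21 presynaptic genes 5 were lower and 0 higher, with a median of -0.17. Of all genes tested 8.71% were lower and 3.12% higher. Syp, the vesicle protein synaptophysin, had 959, 999.7 and 967 TPM at 8 weeks, against 1207, 1227 and 1427 TPM at 3 weeks (-0.40 ± 0.06, adjusted p = 6e-05). Vamp2, the vesicle SNARE, averaged 891 ± 26.5 TPM at 8 weeks and 1073 ± 41.7 TPM at 3 weeks (-0.27). Without 8-week replicate 1 these were the 2 presynaptic genes called, and Sv2a, Syn1 and Syn2 were not. Sv2a was also not called without 3-week replicate 3. Of 21 postsynaptic scaffold genes 3 were lower, among them Dlg4 (-0.28) and Camk2b (-0.24), and 0 without 8-week replicate 1. Camk2b was also not called without 8-week replicate 2, 8-week replicate 3 or 3-week replicate 3. Against the second set of 3-week libraries 2 presynaptic genes were higher and 2 lower, with a median of 0.12. For the postsynaptic scaffold list 2 were higher and 0 lower against that set, with a median of 0.09. Of 15 NMDA and AMPA receptor genes, Cnih2 (-0.34), an AMPA receptor auxiliary protein, and Grin1 (-0.31), the obligatory NMDA subunit, were lower. Without 3-week replicate 3, Grin1 was not called (adjusted p = 0.084).

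The subunits that exchange during postnatal development did not pass. Grin2b, the juvenile NMDA receptor subunit, had 25.9, 36.6 and 34.1 TPM at 8 weeks, against 44.5, 40.8 and 38.2 TPM at 3 weeks (-0.36 ± 0.21, adjusted p = 0.3), and Grin2a, the adult subunit, averaged 25.4 ± 2.64 TPM at 8 weeks and 25.1 ± 3.63 TPM at 3 weeks (0.02). Slc12a5 (0.12) and Slc12a2 (-0.22), the chloride exporter and importer of neurons, were not called either. Against the second set, Grin2b had a fold change of 0.64 (adjusted p = 0.036), in the other direction. Of 19 potassium channel genes Kcnc1, which gives fast-spiking neurons their short action potentials, was called higher (0.35 ± 0.09), but not without 8-week replicate 3 or 3-week replicate 3. The share of all genes called higher was 3.12%. Of 8 sodium channel genes 0 were called by limma.

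Among regional neuron markers, 3 of 14 cortical genes were lower. Over all genes tested, 8.71% were lower and 3.12% higher. Slc17a7, the vesicular glutamate transporter of the cortex, averaged 542 ± 8.39 TPM at 8 weeks and 695 ± 89.7 TPM at 3 weeks and fell (-0.35). Ccn2 (-0.71), of the deepest cortical layer, and Cux2 (-0.28), of the upper layers, were the other lower genes of 14, and both calls ended without 8-week replicate 3 or 3-week replicate 3, each of which left 1, and that of Ccn2 also without 8-week replicate 1, and that of Cux2 also without 8-week replicate 2. Cbln3 (0.55 ± 0.16) was called higher of 12 granule cell genes and Itpr1 (0.65 ± 0.21), the calcium release channel, of 9 Purkinje cell genes. Neither was called without 8-week replicate 2, 8-week replicate 3 or 3-week replicate 3, nor Itpr1 without 3-week replicate 1. The second set of 3-week libraries had 133, 130.2 and 124 TPM of Cbln3, above both groups here. Hcrt, with 29.7, 18.5 and 22.9 TPM at 8 weeks, against 11.9, 13.9 and 13.6 TPM at 3 weeks, was called higher (0.79 ± 0.21), but not without 8-week replicate 1. Limma called 0 of the 10 striatal genes here, and 6 higher against the second set.

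Glial and immune identity genes were mostly not called, where 8.71% of all genes tested were lower and 3.12% higher. Of 17 astrocyte genes, S100b (0.47), a calcium-binding protein, and Mlc1 (0.20), a protein of astrocyte end-feet, were higher and Agt (-0.69), angiotensinogen, was lower. Agt had 59.5, 62.7 and 51.8 TPM at 8 weeks, against 72.2, 69.8 and 165 TPM at 3 weeks, and was not called without 3-week replicate 3 (adjusted p = 0.42) or without any 1 of the 8-week libraries. Mlc1 was not called without 3-week replicate 2, nor S100b without 8-week replicate 1. The 16 microglial identity genes, none of them called, had a median of 0.01. P2ry12 and Cx3cr1, the purinergic and fractalkine receptors of resting microglia, had log2 fold changes of -0.10 and -0.28. Against the second set of 3-week libraries 3 of the 16 microglial identity genes were higher, and the list's median was 0.28. Of 10 MHC class I genes B2m (0.40) and the peptide transporter Tap2 (0.38) were higher, and without 3-week replicate 2 neither was called. Tap2 was also not called without 8-week replicate 1, nor B2m without 8-week replicate 2, 8-week replicate 3 or 3-week replicate 3. Of 12 interferon response genes 0 were called by limma. Of 10 markers of blood leukocytes 7 were under the minimum, and their sum was between 10.2 and 18.6 TPM at 8 weeks and between 4.24 and 9.41 TPM at 3 weeks.

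Mitochondrially encoded genes were higher in 8 of 13 members and lower in 0, with a median of 0.33. Among all genes tested, 3.12% were higher and 8.71% lower. The NADH dehydrogenase subunit gene mt-Nd3 had 939, 1053 and 1075 TPM at 8 weeks, against 427, 403 and 472 TPM at 3 weeks (1.23 ± 0.21, adjusted p = 0.00016). For mt-Nd2 the levels were 9225, 8619 and 9375 TPM at 8 weeks, against 6966, 6845 and 5032 TPM at 3 weeks (0.55 ± 0.09, adjusted p = 0.00016). In mt-Nd2 3-week replicate 3 was the lowest library, as it was in the mitochondrial share, and without it 4 members were called. Against the second set of 3-week libraries, 5 members were higher and 1 was lower at 8 weeks. Of 17 nuclear genes of oxidative phosphorylation 0 were higher and 1, Atp5g1 (-0.36), was lower. Of 20 cytosolic ribosomal protein genes 6 were higher and 2 lower. Rps29 had 1265, 1180.4 and 1244 TPM at 8 weeks, against 889, 833 and 852 TPM at 3 weeks (0.52 ± 0.12), while Rps2 fell (-0.37 ± 0.08). Leaving out any 1 of the 6 libraries but 3-week replicate 3 lowered the 6 higher genes to 2 or 3, so this count was fragile, and without 3-week replicate 3 none was lower.

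**Figure D4:**
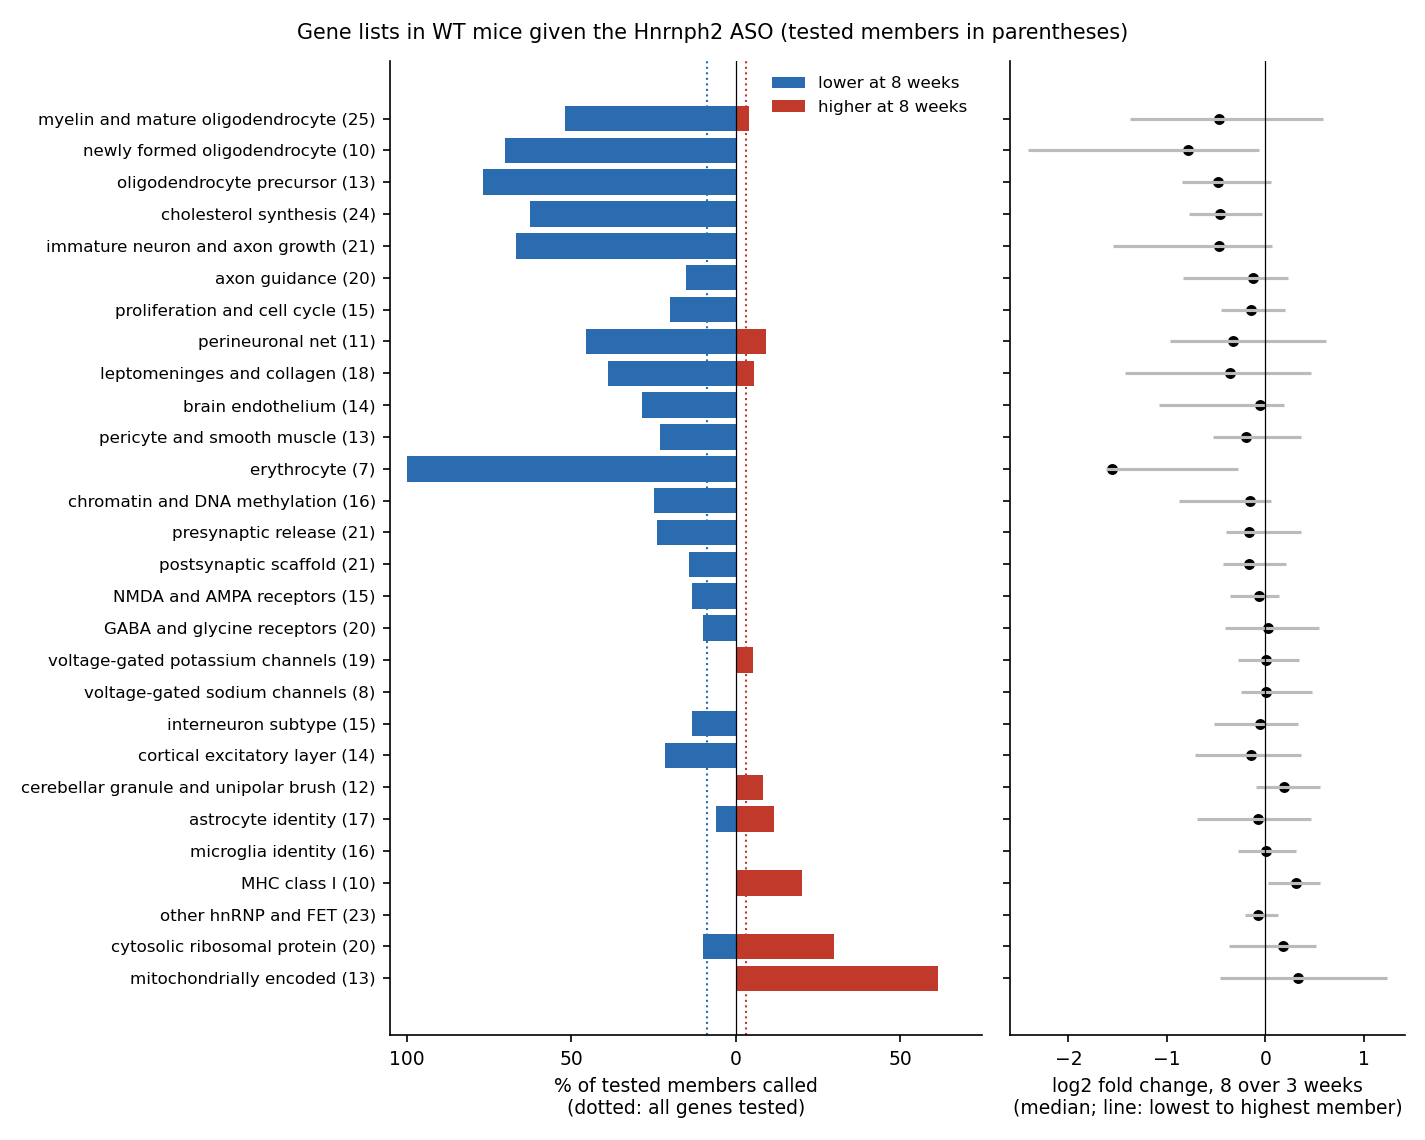
Left, percentage of the tested members of 28 gene lists called lower (blue, to the left) or higher (red, to the right) at 8 weeks with the Hnrnph2 ASO; dotted lines mark the 8.71% and 3.12% of all genes. Right, median log2 fold change of each list (point) with its lowest and highest member (line). The oligodendrocyte, cholesterol, immature neuron and erythrocyte lists have the longest blue bars, and the mitochondrially encoded list the longest red one.

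Calls in the splicing regulator, immediate early and secreted factor lists were all lower at 8 weeks. Of all genes tested 8.71% were lower, and the splicing regulator and immediate early counts lay near that share. Of 21 neuronal splicing regulators, Nova2 (-0.36) and Elavl3 (-0.21) were lower and 0 were higher. Against the second set of 3-week libraries 2 splicing regulators were higher and 1 was lower. Of 24 immediate early genes Nptx2 and Dusp6 were lower, with Nptx2 at 26.7, 27.3 and 27.2 TPM at 8 weeks, against 36.1, 38.1 and 99.7 TPM at 3 weeks. With 1 library left out, the fold change of Nptx2 lay between -1.16 and -0.44, and its call was kept each time. Dusp6 was not called without 8-week replicate 1, 8-week replicate 3 or 3-week replicate 3. The 4 growth factor genes called lower (among them Igfbp4, Vgf and Igf1) and the 3 neuropeptide and granule genes (Cpe, Chga and Vgf) were not called without 3-week replicate 3. In that library Vgf, a secreted granule protein, stood at 469 TPM and Cdkn1a, a cell cycle inhibitor, at 121 TPM, against 202 to 207 TPM and 35.9 to 37.0 TPM in the other 3-week libraries. Cdkn1a fell (-1.23 ± 0.28) with all libraries and was still called without that one, with a smaller fold change (-0.66, adjusted p = 0.038).

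The same ages were compared in WT mice with the control ASO, which share no library with the comparison above. There, 1417 genes (8.53%) were lower and 465 (2.8%) higher at 8 weeks. In all, 1134 genes were called with both ASOs, or 57.7% of the 1965 calls with the Hnrnph2 ASO and 60.3% of the 1882 with the control ASO, and all 1134 had the same direction. Of the 1965 genes, 1935 had the same sign with the control ASO. Across the 16618 genes, which are not independent, the 2 fold changes correlated with r = 0.51. The control counts depended on single libraries. The higher genes numbered 261 without 8-week control replicate 1, 251 without 8-week replicate 2, 255 without 3-week replicate 1 and 216 without 3-week replicate 3. The lower genes numbered 745 without 8-week control replicate 2, 2303 without 8-week replicate 3, 784 without 3-week replicate 1 and 874 without 3-week replicate 3.

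No gene passed the test of the difference between the 2 age effects. Limma called 0 of 16618, and 436 (2.62%) had an unadjusted p under 0.05. Without 8-week replicate 1 of the Hnrnph2 ASO, 3 genes were called. The median half-width of the 95% interval of the difference was 0.32 on the log2 scale, before any adjustment over genes. The smallest p belonged to Ndufa4l2, a relative of a respiratory chain subunit, with a fold change of 0.38 with the Hnrnph2 ASO and -0.23 with the control ASO (difference 0.62, interval 0.33 to 0.90, adjusted p = 0.999). Ten1, of a telomere-binding complex, had -0.23 with the Hnrnph2 ASO and 0.23 with the control ASO (difference -0.46, adjusted p = 0.999), and Rps12l1 had -1.64 with the Hnrnph2 ASO and 0.43 with the control ASO (difference -2.07, adjusted p = 0.999).

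In the control ASO comparison the main groups had the following counts. Of the myelin, newly formed oligodendrocyte and precursor genes, 14, 8 and 10 were lower with the control ASO, and 15 of the cholesterol synthesis genes. For Cldn11 the difference between the age effects was -0.14 (interval -0.41 to 0.13), for Marcksl1 -0.10 (interval -0.31 to 0.12), for Dnmt3a -0.03 (interval -0.30 to 0.23) and for Il33 -0.30 (interval -0.73 to 0.14). Of the 15 largest rises 11, and of the 15 largest falls 9, were also called with the control ASO, and 15 and 14 had the same sign. Erythrocyte genes were called lower in 3 of 7 members with the control ASO, with a median of -0.79 against -1.56 with the Hnrnph2 ASO. For Hbb-bs the difference was -0.46 (interval -1.40 to 0.49), which does not pass. The summed haemoglobin level with the control ASO was 1815, 1073 and 1494 TPM at 8 weeks, against 3212, 2182 and 2555 TPM at 3 weeks.

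**Figure D5:**
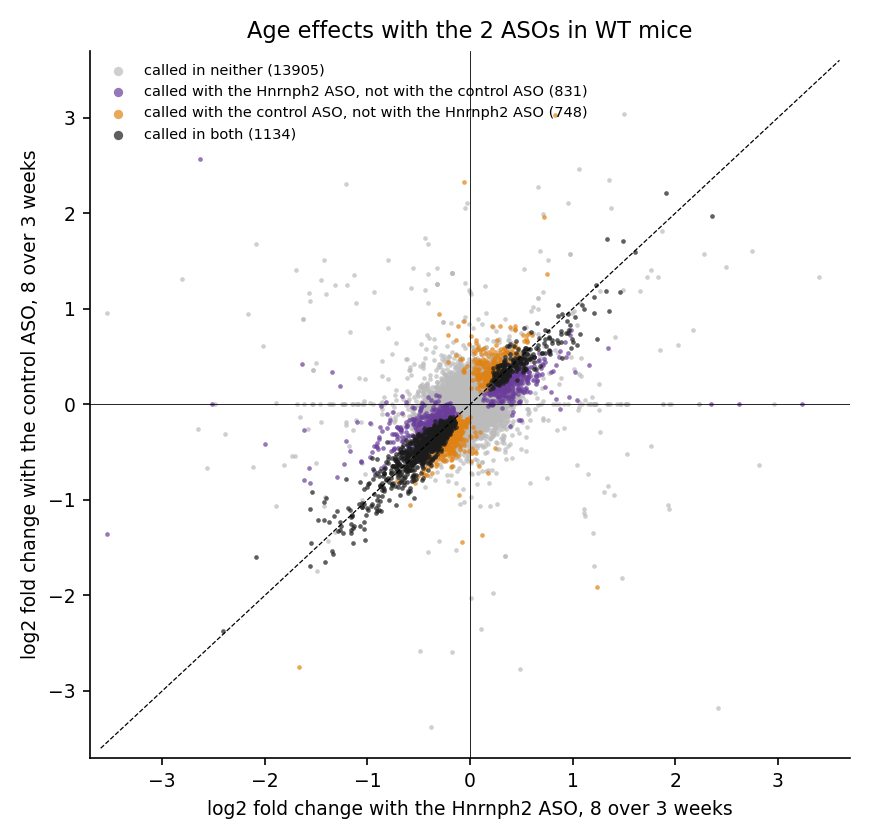
Log2 fold change of each gene, 8 over 3 weeks, with the Hnrnph2 ASO (horizontal axis) and with the control ASO (vertical axis) in WT mice; the dashed line marks equality, and 1 gene lies outside the axes. The 1134 genes called in both (black) have the same sign on both axes.

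Against the second set of 3-week libraries with the Hnrnph2 ASO, the same 8-week libraries gave 1671 lower (10.1%) and 1277 higher (7.68%) genes. These comparisons share the 8-week libraries. Of the 15 largest rises 12, and of the 15 largest falls 13, were also called against that set. The myelin, newly formed oligodendrocyte, precursor and immature neuron lists had 13, 7, 6 and 7 lower members. Cldn11 had 525, 594 and 506 TPM and Marcksl1 236, 241 and 234 TPM in that set, with 8-week fold changes of -1.39 and -1.38. Serpinb1a and Il33 stood at 5.21, 5.03 and 5.63 TPM and 6.87, 6.29 and 7.25 TPM there, within or below the ranges of the 3-week libraries above. Granule and Purkinje cell genes were lower in 5 of 12 and 4 of 9 members at 8 weeks against that set, where here 0 were lower. Striatal, cortical layer and potassium channel genes were higher in 6 of 10, 5 of 14 and 6 of 19 members against that set, where here 0, 0 and 1 were higher. The median log2 fold change of the striatal list was 0.61 against that set and 0.06 here, and that of the cortical list 0.31 against that set and -0.15 here.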

How the data were processed

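RNA of mouse brain was sequenced from 35 libraries with a stranded total RNA kit, per the labels' protocols. The authors deposited 1 table of TPM values per gene, made with Trim Galore, STAR 2.7.1a, GATK 4.0.4.0 and RSEM on mm10, per the submitters' processing notes. Read depth is unknown, so no counting interval is given. All columns of values matched a sample by name. Gene positions come from RefSeq (GRCm38), which held 15478 of the tested symbols.

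Tests used limma 3.58.1 (R 4.3.3) on log2(TPM + 1) values (lmFit with 1 mean for each of 12 groups, contrasts.fit and eBayes with trend, two-sided, 23 residual degrees of freedom), checked on simulated data. Fold changes on this scale understate the change of low genes. Genes with a mean of 1 TPM or more over the 6 libraries were tested, p-values were adjusted by Benjamini-Hochberg over all 16618, with calls made below an adjusted p of 0.05. The difference of the age effects was a contrast in the same fit. The exact permutation test of 3 against 3 libraries cannot go below 0.1 and was not used. Named genes are the hnRNP H/F family, the 15 largest rises and falls among called genes without overlap and with a gene name, up to 4 called members per list with the smallest p, members not called, and the 3 genes with the smallest p of the difference. Hapln2, Dcn, Tnc, Hapln1, Syn2 and Bpgm fall outside that rule and were chosen after their values were seen. The members, the 55 gene lists and the tests were chosen with earlier results of these data known. Alternatives varied the pseudocount, filter, scaling, libraries in the fit, 3-week set, a cerebellar covariate, the replicate block, the variance model and each library. No sequences are given, since none were used here. The values of some genes are not reported here.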

Additional observations from a re-analysis of the deposited data

How the results depend on the processing

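Counts of genes called with the Hnrnph2 ASO moved most when fewer libraries were fitted. Fitted alone, the compared groups gave 101 higher and 283 lower genes at 8 weeks with the Hnrnph2 ASO, 46 and 212 with the control ASO, and 1 gene for the difference. Median-of-ratios scaling gave 830 higher genes with the Hnrnph2 ASO and 744 with the control ASO, and no filter gave 2 genes for the difference. With the second 3-week set, 1277 genes were higher with the Hnrnph2 ASO, and 870 higher and 2399 lower with the control ASO. Leaving out 1 library gave 335 to 545 higher and 853 to 1635 lower genes with the Hnrnph2 ASO, 216 to 666 and 745 to 2303 with the control ASO, and 0 to 3 for the difference. The pseudocount, the other filters and scalings, the 23-library fit, the cerebellar covariate and the variance model kept the Hnrnph2 ASO counts within 1.5 times. After each gene's group mean was subtracted, the remaining deviations of same-numbered libraries of the 2 ages correlated at -0.03, -0.08 and -0.05 with the Hnrnph2 ASO. With the control ASO these values were -0.04, 0.33 and 0.12. Whether same-numbered libraries were related was not tested. The replicate block gave 618 higher and 1705 lower genes with the Hnrnph2 ASO. With the second 3-week set, directions turned for Grin2b (0.64) and Grsf1 (0.051), neither of them called here. They also turned for Epha5 (0.20), Grik4 (0.042), Gabrg3 (0.20), Gphn (0.079), Dlg4 (0.031), Cbln3 (-0.24), Igfbp4 (0.024), Vgf (0.021), Nova2 (0.023), Rps27 (-0.031) and Actb (0.051). Without 1 library, Hnrnph2 lay between -0.25 and 0.12. The cause of these shifts was not tested. Depth is unknown, so limits of detection are not given.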

Other observations

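Among lists not described above, Dbp, an output gene of the circadian clock, was the 1 of 15 clock genes called higher at 8 weeks. H19, an imprinted noncoding RNA, was the 1 of 15 imprinted growth genes called lower. Of all genes tested 3.12% were higher and 8.71% lower. Of 11 thyroid hormone-responsive genes 3 were lower, among them Mbp and Hr, and 0 were higher, and of 8 developmental RNA-binding protein genes Igf2bp2 and Qk were lower. Without 3-week replicate 3 the calls of Dbp, H19, Igf2bp2 and Qk ended, and 0 of the 8 RNA-binding protein genes were called by limma. In that fit another clock gene was called higher and another imprinted growth gene lower, 1 in each list.

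Many calls in the other neuronal and stress lists rested on single libraries. Gabrg3 and Gphn were lower of 20 GABA and glycine receptor genes, Grik5 and Grik4 of 13 kainate and metabotropic receptor rows, Npy and Cort of 15 interneuron genes, and Cacna2d3 of 13 calcium channel genes. These counts lay near the 8.71% of all genes tested that were lower. The share called higher was 3.12%. Gabrg3 and Cacna2d3 kept their calls in 1 of the 6 fits that left out 1 library, and Gphn and Grik4 in 2. Without 3-week replicate 3, 0 of the GABA and glycine receptor genes were called by limma, Grik4 had a log2 fold change of -0.12, and Npy one of -0.28, neither called. No gene of these 4 lists was called higher with all libraries. Without 3-week replicate 2, 1 GABA and glycine receptor gene was, and against the second set of 3-week libraries 5 of that list, 3 of the kainate list and 2 of the interneuron list were. Limma called 0 of 8 chloride and GABA handling genes, 0 of 14 heat shock genes and 0 of the 2 tested pituitary genes. Kcnj13, a potassium channel of the choroid plexus, was higher, 1 of 10 choroid genes. Cdkn1a and Sult1a1 were lower of 11 glucocorticoid-responsive genes, but Sult1a1 not without 8-week replicate 3 or 3-week replicate 3. The list's median log2 fold change was -0.44 with all libraries and 0.02 without 3-week replicate 3, which left 1 gene lower and 1 higher. Lyz2 and Cd74 were higher and Igf1 lower of 11 microglial activation genes, and all 3 calls ended without 3-week replicate 3. Cd74 kept its call in 1 of the 6 fits that left out 1 library. Of 12 reference genes B2m was higher and Actb and Rplp0 lower, and the calls of B2m and Rplp0 ended without 3-week replicate 3.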
